A study of Homo sapiens with 35 samples.

Results

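The aminoacyl-tRNA synthetases are the enzymes that load each amino acid onto its transfer RNA, and 35 of their genes were followed here in the glioblastoma cell line U-87 MG. The 35 genes were chosen by name, as 19 cytosolic enzymes (symbols ending in 1, FARSA and FARSB) and 16 mitochondrial enzymes (symbols ending in 2), out of 62696 rows in the count table. No measured value decided which gene entered, but the family was singled out with RNA-seq results of these libraries known, so every count over its members is a description.

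Cells keep separate sets of these enzymes for translation in the cytosol and in mitochondria, and nearly all mitochondrial ones are encoded by their own nuclear genes. GARS1 (glycine) and KARS1 (lysine) each serve both compartments. EPRS1 (glutamate and proline), IARS1 (isoleucine), LARS1 (leucine), MARS1 (methionine), QARS1 (glutamine), RARS1 (arginine) and KARS1 sit in the multi-synthetase complex, while AARS1 (alanine), CARS1 (cysteine), HARS1 (histidine), NARS1 (asparagine), SARS1 (serine), TARS1 (threonine), VARS1 (valine), WARS1 (tryptophan), YARS1 (tyrosine) and the phenylalanine enzyme subunits FARSA and FARSB are not core members of it. Many cytosolic synthetase genes are known targets of the transcription factor ATF4, which is made when the kinases of the integrated stress response phosphorylate eIF2α and which binds, with C/EBP partners, to a composite element read here as TGATGNAA.

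The study asked how ETS1, a transcription factor of the ETS family, and p52, the NF-κB subunit made from NFKB2, act in cells exposed to the cytokine TWEAK, a ligand of the non-canonical NF-κB pathway. RNA-seq covered 4 groups of 3 libraries, which were untreated control cells, control cells given TWEAK, ETS1 KD cells given TWEAK and NFKB2 KD cells given TWEAK, with TWEAK at 10 ng/ml for 48 h in cells that had first been starved. ChIP-seq covered 10 conditions of 2 libraries each. ETS1 was precipitated from control cells without and with TWEAK, p52 from the same and from TWEAK-treated ETS1 KD cells made with guide 1 or guide 2, and RNA Pol II from control cells without and with TWEAK and from both knockdown lines with TWEAK. Knockdown cells were made with lentiviral CRISPR-Cas9 and no untreated knockdown cells were analysed here, so an effect of a knockdown without TWEAK could not be measured. The labels name no guide for the RNA-seq and RNA Pol II libraries, and nothing says whether a line was 1 clone.

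Libraries held 28384201 to 40192606 counts, and 16879 genes passed the filter on low counts, including 34 of the 35 synthetases. VIM, CD44 and NES were detected in all 12 libraries, while the astrocyte marker GFAP stayed between 0.0579 and 0.365 counts per 1000000 (CPM) and S100B between 0 and 0.154 CPM. The 6 markers of immune, epithelial, endothelial and erythroid cells summed to 2.14 to 4.9 CPM per library, with HBB at 0 in 11, CD3E in 10 and PTPRC in 7 of 12 libraries. ETS1 stood at 71.9, 73.1 and 87.6 CPM in TWEAK-treated control cells and at 28.2, 33 and 37.8 CPM in ETS1 KD cells (log2 fold change -1.23 ± 0.15 SE, edgeR adjusted p = 0.00113). NFKB2 stood at 235, 289 and 346 CPM against 75.7, 92.6 and 105 CPM in NFKB2 KD cells (-1.67 ± 0.18, edgeR adjusted p = 0.00339). In both knockdowns the targeted transcript was therefore lower in all 3 libraries than in every control library. These are bulk libraries, in which fewer cells expressing a gene and less RNA per cell cannot be told apart.

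In untreated cells the cytosolic enzymes were the more abundant class. Expressed per exon length as transcripts per 1000000 (TPM), their means ran from 34.9 TPM for HARS1 to 339 TPM for SARS1, with a median over the 19 genes of 107 TPM, and 16 of the 19 were above 50 TPM. NARS1 followed SARS1 at 220 ± 33.2 TPM (SD, n = 3), which lay close to TARS1 at 219 ± 23.2 TPM, so these neighbours did not differ beyond their spread. The mitochondrial enzymes had a median of 18.5 TPM. Only IARS2 (isoleucine) at 221 ± 14.5 TPM and CARS2 (cysteine) at 125 ± 7.55 TPM exceeded 50 TPM. Exon length here takes in every annotated exon of a gene, 14155 bases for HARS1 and 3849 for SARS1, so ranks in TPM depend on the annotation. By mean CPM, IARS1 was the highest cytosolic enzyme at 570, with SARS1 at 343. CARS1 was the lowest at 100, with HARS1 at 130. CARS2 was at 342 CPM and IARS2 at 241 CPM.

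At the low end, SARS2, the mitochondrial serine enzyme, was at 2.73 ± 0.651 TPM, and NARS2, the mitochondrial asparagine enzyme, was at 2.01 ± 0.234 TPM. The annotated exons of NARS2 span 16377 bases, and by mean CPM NARS2 at 8.66 was above PARS2 at 7.2 and SARS2 at 2.22. VARS2, the mitochondrial valine enzyme, received 3 counts in all 12 libraries together and was not tested. In GENCODE release 44, 63% of the exon bases of VARS2 and 48.2% of those of SARS2 lie in another gene model on the same strand, and how reads there were assigned is not stated. The levels of VARS2 and SARS2 are therefore uncertain.

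**Figure D1:**
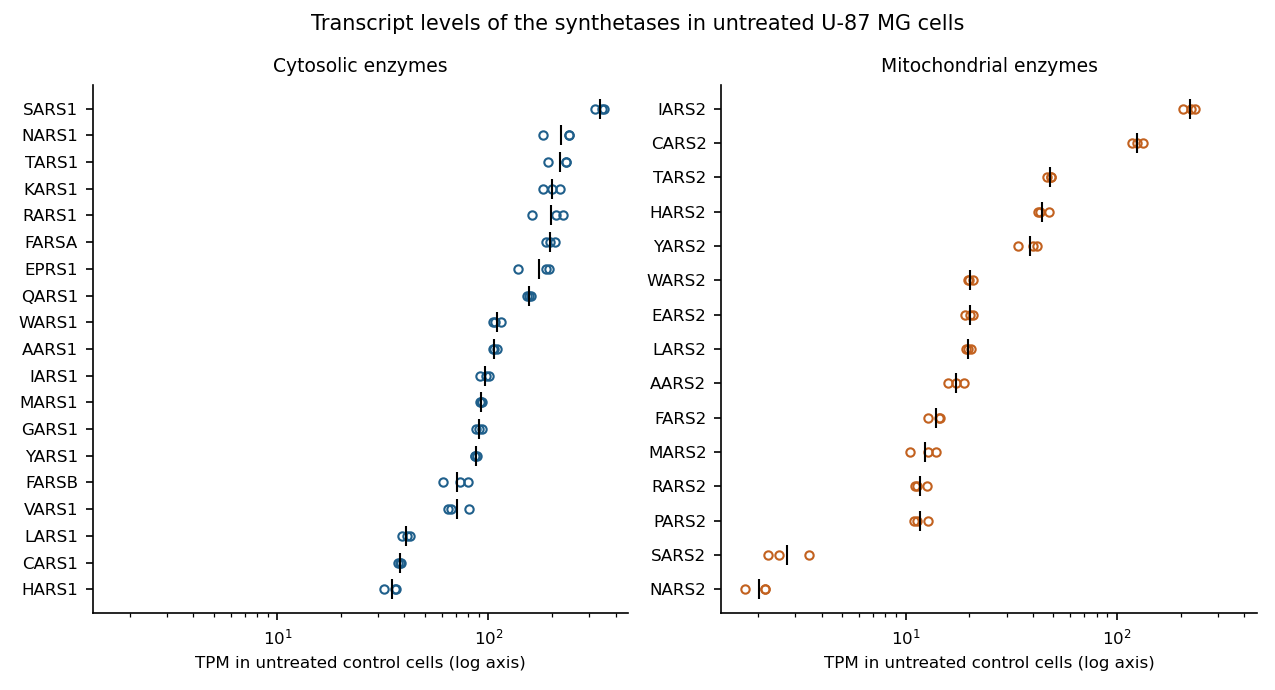
Transcript level in TPM (log axis) of each synthetase in untreated control cells, with open points for the 3 libraries and a bar for their mean; VARS2 is left out because it is at 0. Most cytosolic enzymes lie above 50 TPM, whereas only IARS2 and CARS2 do so among the mitochondrial enzymes.

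TWEAK itself moved no synthetase past the threshold in control cells. None of the 19 cytosolic and none of the 15 tested mitochondrial enzymes was called at an edgeR adjusted p under 0.05, where 3.08% of all genes tested were called, 1.55% higher and 1.53% lower. At an unadjusted p under 0.05 there were 3 cytosolic enzymes (WARS1, VARS1 and MARS1) and 1 mitochondrial enzyme (MARS2), against 14.7% of all genes, and DESeq2 called WARS1 alone. The study's own thresholds, an unadjusted p of at most 0.05 with a fold change of at least 1.5, called no member and 7.09% of all genes. The median log2 fold change was 0.10 for the cytosolic and -0.0038 for the mitochondrial enzymes, beside 0.02 over all genes. Without TWEAK replicate 1 the cytosolic median was 0.0148, and without untreated replicate 1 it was 0.1549.

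WARS1, the tryptophan enzyme, was at 183, 176 and 188 CPM in untreated cells and at 247, 216 and 252 CPM with TWEAK. All TWEAK libraries were above all untreated ones, with a log2 fold change of 0.39 ± 0.12 (SE) and an edgeR adjusted p of 0.102. In total 6 cytosolic enzymes (AARS1, LARS1, MARS1, VARS1, WARS1 and YARS1) and 1 mitochondrial enzyme (EARS2, glutamate) had TWEAK libraries wholly above the untreated ones, and none lay wholly below, where 11% of all genes lay above and 11.5% below. The smallest differences were those of SARS1, at 363, 349 and 316 CPM untreated and 401, 331 and 312 CPM with TWEAK, and of PARS2, the mitochondrial proline enzyme, at 7.09, 6.79 and 7.72 CPM untreated and 6.42, 7.07 and 8.05 CPM with TWEAK. In both genes the groups overlapped.

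Against TWEAK-treated control cells, ETS1 KD gave 3 called synthetases, all of them cytosolic enzymes that fell. AARS1, GARS1 and WARS1 were called lower in ETS1 KD cells than in control cells, both with TWEAK, while none of the other 16 cytosolic or the 15 tested mitochondrial enzymes was called. Over all genes 1.39% were called, 1.13% lower and 0.255% higher. No member was called higher. The study's thresholds called the same 3 members and 5.67% of all genes. At an unadjusted p under 0.05 there were 7 cytosolic and 2 mitochondrial enzymes, against 12% of all genes.

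AARS1, which charges the alanine tRNA, was at 310, 290 and 291 CPM in control cells and at 166, 175 and 155 CPM in ETS1 KD cells. The groups were far apart, and AARS1 fell by 44.3% (log2 fold change -0.85 ± 0.09 SE, edgeR adjusted p = 0.000367). The knockdown libraries also lay below the untreated control libraries, which were at 286, 286 and 290 CPM.

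GARS1, the glycine enzyme of both compartments, was at 474, 425 and 425 CPM in control cells and at 253, 292 and 249 CPM in ETS1 KD cells. Its highest knockdown library was below its lowest control library, and the log2 fold change was -0.74 ± 0.10 (SE, edgeR adjusted p = 0.00253). WARS1 was at 247, 216 and 252 CPM in control cells and at 129, 157 and 147 CPM in ETS1 KD cells, with a log2 fold change of -0.73 ± 0.12 (SE, edgeR adjusted p = 0.00631). For WARS1, the cytosolic gene with the largest log2 fold change with TWEAK, the knockdown libraries were below the untreated libraries as well. All 3 genes remained called under each of the 15 alternatives.

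The other cytosolic enzymes spread on both sides of 0, from -0.36 for CARS1 to 0.26 for FARSB. CARS1, the cysteine enzyme, was at 116, 102 and 100 CPM in control cells and at 82.6, 83 and 81.6 CPM in ETS1 KD cells, which did not overlap but missed the threshold (-0.36 ± 0.11 SE, edgeR adjusted p = 0.147). SARS1, MARS1 and YARS1 likewise had knockdown libraries wholly below the control libraries without a call, with log2 fold changes of -0.35, -0.32 and -0.25. In all, 7 cytosolic enzymes lay wholly below and none wholly above, where 10.8% of all genes lay below and 9.57% above. LARS1 had the smallest difference of this class, at 262, 232 and 247 CPM in control cells and 215, 266 and 237 CPM in ETS1 KD cells. IARS1, NARS1, QARS1, RARS1, TARS1, EPRS1, HARS1, VARS1, KARS1, FARSA and FARSB also had overlapping groups.

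No mitochondrial enzyme was called. Of the 15 tested, 12 had a log2 fold change above 0 and 3 below (WARS2, PARS2 and RARS2), where 8596 of all 16879 genes tested were above 0. AARS2, the mitochondrial alanine enzyme, was at 22.9, 25.6 and 22.5 CPM in control cells and at 30, 30.3 and 31.8 CPM in ETS1 KD cells, with no overlap (0.38 ± 0.12 SE, edgeR adjusted p = 0.195). CARS2 was at 361, 316 and 273 CPM against 399, 410 and 376 CPM (0.32 ± 0.13 SE, edgeR adjusted p = 0.309). Together with EARS2 and TARS2 (threonine) these were the 4 mitochondrial enzymes whose knockdown libraries lay wholly above. SARS2 had the smallest difference, at 2.15, 2.59 and 2.83 CPM against 2.2, 2.97 and 2.54 CPM, and FARS2, HARS2, IARS2, LARS2, MARS2, NARS2, PARS2, RARS2, WARS2 and YARS2, the enzymes for phenylalanine, histidine, isoleucine, leucine, methionine, asparagine, proline, arginine, tryptophan and tyrosine, had overlapping groups too.

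**Figure D2:**
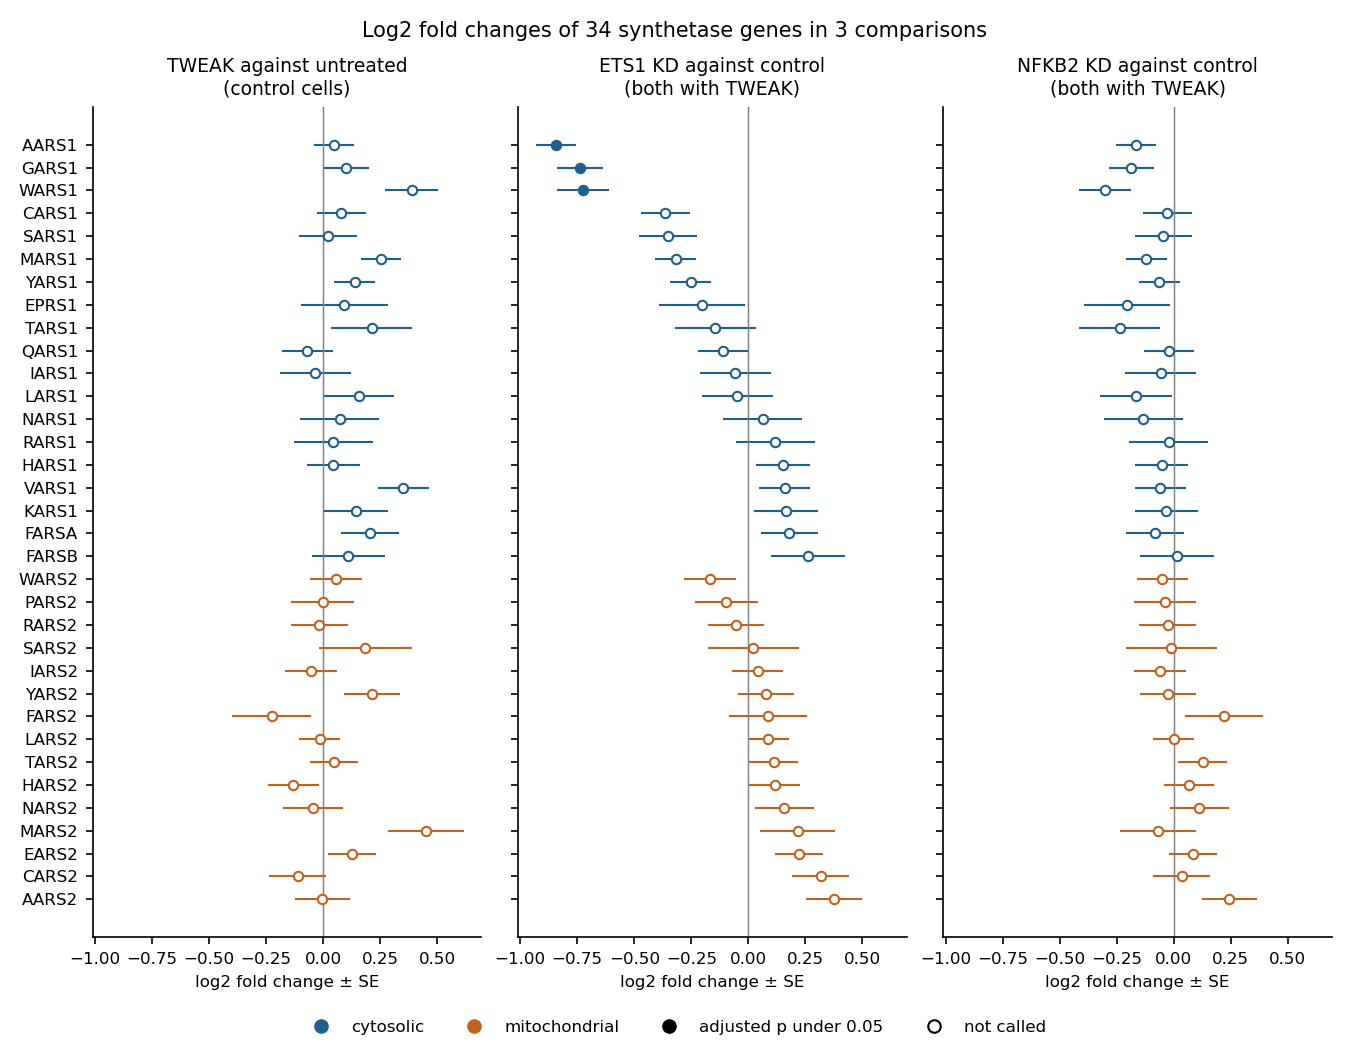
Log2 fold change ± SE from edgeR for the 34 tested synthetases in 3 comparisons, cytosolic enzymes in blue and mitochondrial enzymes in orange, with filled points at an adjusted p under 0.05. The only filled points are AARS1, GARS1 and WARS1 with ETS1 KD, at -0.85, -0.74 and -0.73; the TWEAK and NFKB2 KD comparisons share the TWEAK-treated control libraries with it.

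By class, the median log2 fold change with ETS1 KD was -0.11 for the cytosolic and 0.09 for the mitochondrial enzymes, beside 0.0051 over all genes. Of the 12 amino acids whose cytosolic and mitochondrial enzymes were both tested, 10 had the lower log2 fold change in the cytosolic enzyme, with a median difference of -0.29. The widest gap was that of alanine, where AARS1 and AARS2 differed by -1.22 on the log2 scale. Arginine and histidine were the exceptions, with differences of 0.17 and 0.04. Leaving out 1 library at a time moved the cytosolic median between -0.18 and -0.01 and the mitochondrial median between 0.04 and 0.12. With NFKB2 KD, against the same control libraries, the cytosolic enzyme was also the lower in 10 of the 12 amino acids (median difference -0.09). With TWEAK it was the lower in 3 and the higher in 9. Between ETS1 KD and NFKB2 KD cells it was the lower in 7 and the higher in 5 (median difference -0.20). The class medians there were 0.0011 for the cytosolic and 0.0488 for the mitochondrial enzymes.

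Within the cytosolic class, the 3 calls were of enzymes outside the multi-synthetase complex, where 1.39% of all genes were called, 1.13% lower. With so few calls this split was not tested. None of its 7 enzymes was called, with a median log2 fold change of -0.06 and a range of -0.32 to 0.16, whereas 3 of the 12 enzymes outside it were called, with a median of -0.20 and a range of -0.85 to 0.26. The complex scaffold genes AIMP1, AIMP2 and EEF1E1 were not called (3 tested). AIMP1 and AIMP2, the more highly expressed of these, had log2 fold changes of 0.04 ± 0.20 and 0.10 ± 0.13 (SE). By catalytic fold, 1 of the 17 tested class I enzymes and 2 of the 16 class II enzymes were called, again beside 1.39% of all genes.

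**Figure D3:**
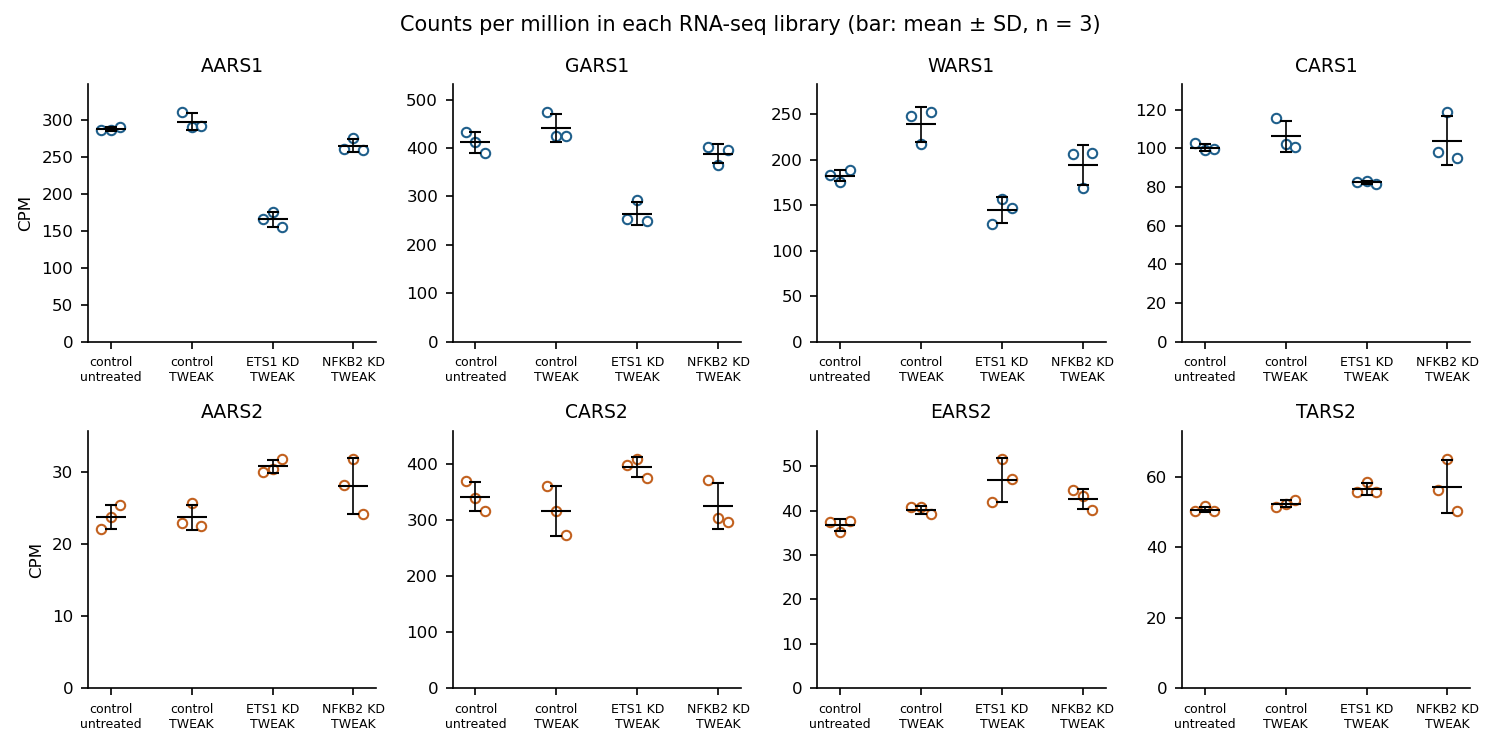
CPM of 4 cytosolic (blue) and 4 mitochondrial (orange) enzymes in each of the 12 RNA-seq libraries (open points), with bars for the mean ± SD of 3 libraries and axes from 0. AARS1 lies at 155 to 175 CPM in ETS1 KD cells and at 259 CPM or more in the other 9 libraries.

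Genes of the amino acid response outside the family moved in the same direction as AARS1, GARS1 and WARS1. Of 37 such genes, 36 were tested. They were chosen as known ATF4 targets or partners, with earlier results of these data known. With ETS1 KD 12 were called lower and none higher, where 1.13% of all genes were called lower and 0.255% higher. The median log2 fold change was -0.51 beside 0.0051 over all genes. ATF3, a stress-induced transcription factor, had the largest fall, from a mean of 76.5 CPM to 15.6 CPM (log2 fold change -2.30 ± 0.16 SE, edgeR adjusted p = 3.15e-05). TRIB3, a pseudokinase that restrains ATF4, fell by 1.95 and NUPR1, a stress-induced chromatin protein, fell by 1.91 on the log2 scale. The other genes called lower were DDIT3, CHAC1, ASNS, ALDH1L2, DDIT4, SESN2, CTH, SLC3A2 and ATF4 itself.

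ATF4 was at 311, 290 and 265 CPM in control cells and at 208, 179 and 193 CPM in ETS1 KD cells, with no overlap (-0.58 ± 0.10 SE, edgeR adjusted p = 0.0101). DDIT3, which encodes CHOP, was at 149, 119 and 117 CPM against 40.1, 39.8 and 29.3 CPM. The kinases and phosphatases that set eIF2α phosphorylation were not called (7 tested), where 1.39% of all genes were called. The most highly expressed of them, GCN1 and EIF2AK1, had log2 fold changes of 0.12 ± 0.15 and 0.05 ± 0.10 (SE). PPP1R15A, a stress-induced phosphatase subunit that is also among the 36 response genes, was at a mean of 131.8 CPM in control and 75.7 CPM in ETS1 KD cells, without overlap (-0.80 ± 0.21 SE, edgeR adjusted p = 0.0929). Markers of other cell types summed to 3.19 to 4.59 CPM in control cells and 2.14 to 3.02 CPM in ETS1 KD cells, and their part in these differences was not tested.

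**Figure D4:**
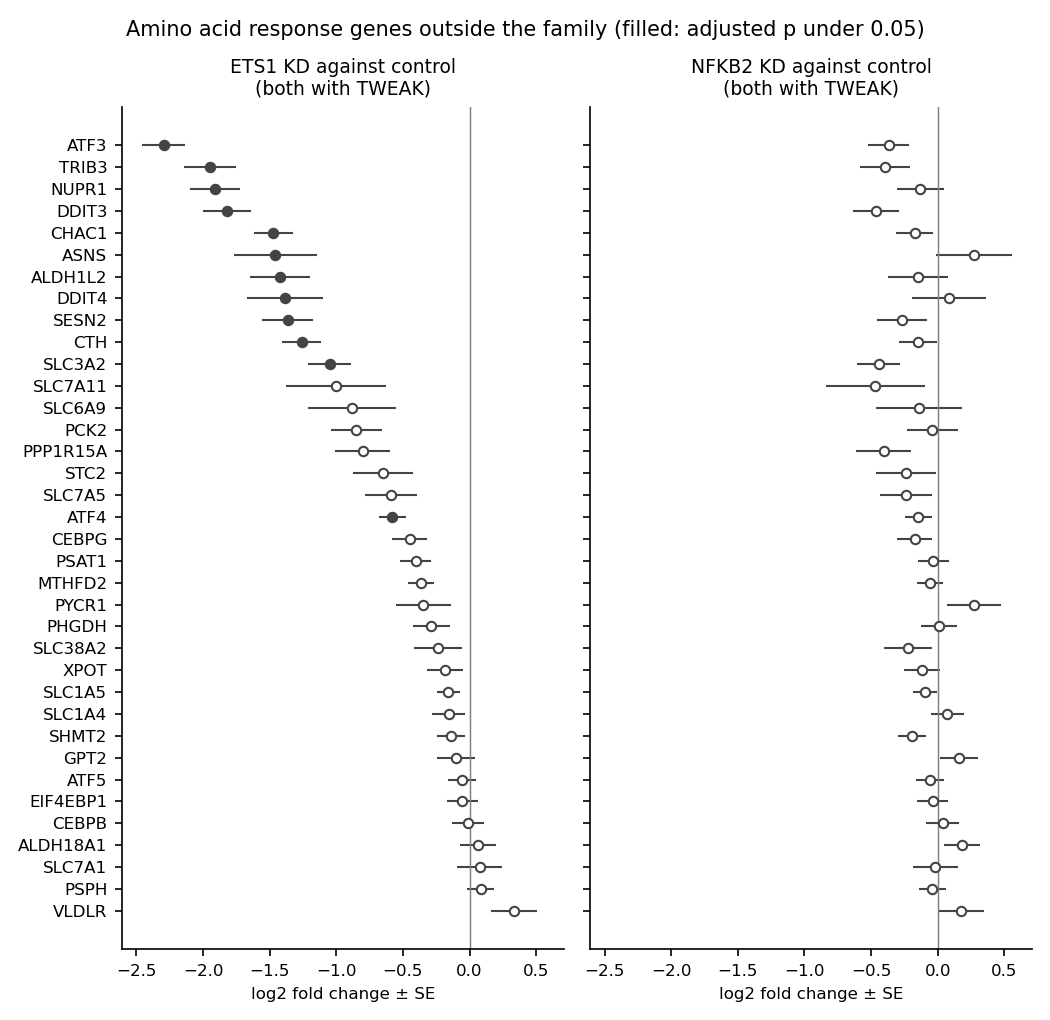
Log2 fold change ± SE from edgeR of the 36 tested amino acid response genes outside the family, with ETS1 KD on the left and NFKB2 KD on the right, both against the same TWEAK-treated control libraries, and filled points at an adjusted p under 0.05. On the left 12 genes are filled, from ATF3 at -2.30 to ATF4 at -0.58, and on the right none is filled.

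Other genes of mitochondrial translation were not called with ETS1 KD. None of 77 tested mitochondrial ribosomal protein genes and none of 13 translation factor genes was called, where 1.39% of all genes were called. Their medians were 0.08 and 0.04 on the log2 scale. Like most mitochondrial synthetases, 65 of the ribosomal protein genes were above 0 and 12 below, and 9 of the translation factor genes were above and 4 below. Over all 16879 genes tested, 8596 were above 0 and 8283 below. Among the translation factors, TUFM and GFM1, which encode mitochondrial elongation factors, had log2 fold changes of 0.15 ± 0.10 and 0.12 ± 0.18 (SE). WARS1 is also a known interferon-induced gene. None of 10 interferon response genes was called with ETS1 KD, 6 of them with a log2 fold change below 0 and 4 above, with a median of -0.11. TAP1, a peptide transporter subunit, was at 0.13 ± 0.13 (SE), and its knockdown libraries lay wholly above the control libraries. IRF1, a transcription factor, IFIT3 and MX1 had knockdown libraries wholly below, at -0.46 ± 0.13, -0.38 ± 0.25 and -0.45 ± 0.18 (SE). Over all genes, 10.8% lay wholly below and 9.57% wholly above. With TWEAK, IRF1 alone of the 10 was called higher (0.70 ± 0.13 SE, edgeR adjusted p = 0.0133). TWEAK called none of the scaffold, amino acid response, eIF2α, translation factor or mitochondrial ribosomal protein genes. Over all genes it called 3.08%, 1.55% higher.

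NFKB2 KD moved no synthetase past the threshold, in a comparison in which 0.0296% of all genes were called, 0.00592% higher and 0.0237% lower, and in which the study's thresholds called no member and 2.25% of all genes. The cytosolic median was -0.06 and the mitochondrial median was 0.0005 on the log2 scale, beside -0.02 over all genes. Of the 19 cytosolic enzymes 18 had a value below 0, where 9329 of all 16879 genes tested did. Without control replicate 1 the cytosolic median was -0.0084, and without NFKB2 KD replicate 1 it was -0.131. WARS1 was the only member with an unadjusted p under 0.05, against 3.91% of all genes. It was at 206, 169 and 207 CPM in NFKB2 KD cells, all below the control libraries (-0.30 ± 0.11 SE, edgeR adjusted p = 0.9996). AARS1, GARS1 and MARS1 also lay wholly below and none lay wholly above, where 3.82% of all genes lay below and 3.05% above, with log2 fold changes of -0.17, -0.18 and -0.12. FARSB, at 160, 125 and 126 CPM in control cells and 166, 117 and 133 CPM in NFKB2 KD cells, and LARS2, at 62.1, 63.3 and 66.1 CPM against 64.5, 63.9 and 63.2 CPM, differed least in their classes. None of the lists named for ETS1 KD held a called gene, DESeq2 also called no synthetase, and the NFKB2 KD library of replicate 2 was the farthest of all 12 from its group mean.

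Set directly against each other, the knockdowns differed in AARS1 and GARS1, where 1.94% of all genes were called, 0.533% higher and 1.4% lower in ETS1 KD cells. AARS1 was at 260, 275 and 259 CPM in NFKB2 KD cells, above the 155 to 175 CPM of ETS1 KD cells (-0.68 ± 0.09 SE, edgeR adjusted p = 0.00233). GARS1 was at 402, 366 and 397 CPM in NFKB2 KD cells, above the 249 to 292 CPM of ETS1 KD cells (-0.55 ± 0.10 SE, edgeR adjusted p = 0.0137). GARS1 lost this call in 4 of 15 alternatives, among them those without ETS1 KD replicate 1 or 3, with adjusted p-values up to 0.104. WARS1 was lower in each ETS1 KD library than in each NFKB2 KD library but missed the threshold (-0.43 ± 0.12 SE, edgeR adjusted p = 0.0855). In all, 7 cytosolic enzymes lay wholly below, and 2 cytosolic and 1 mitochondrial lay wholly above, where 9.22% of all genes lay below and 9.79% above. The study's thresholds called AARS1 alone, and 7.37% of all genes. No mitochondrial enzyme was called, and IARS1 (-0.0006) and TARS2 (-0.02) differed least, with IARS1 at 468, 617 and 518 CPM in ETS1 KD and 632, 402 and 571 CPM in NFKB2 KD cells, and TARS2 at 55.6, 58.5 and 55.7 CPM against 56.3, 65.2 and 50.3 CPM. Among the 36 amino acid response genes, 11 were called lower in ETS1 KD than in NFKB2 KD cells.

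Against untreated control cells, TWEAK-treated ETS1 KD cells had AARS1 and GARS1 lower and VARS1, EARS2 and MARS2 higher, where 13.8% of all genes were called, 6.22% higher and 7.61% lower. At an unadjusted p under 0.05 there were 9 cytosolic and 4 mitochondrial enzymes, against 27.1% of all genes. Wholly above lay 5 cytosolic and 6 mitochondrial enzymes and wholly below 6 cytosolic ones, where 16.9% of all genes lay above and 18% below. The study's thresholds called AARS1, GARS1 and MARS2, and 14.7% of all genes. AARS1 fell by 0.80 and GARS1 fell by 0.64 on the log2 scale (edgeR adjusted p = 0.000144 and 0.00138). VARS1, the cytosolic valine enzyme, was at 101, 103 and 123 CPM in untreated cells and at 158, 147 and 161 CPM in ETS1 KD cells (0.51 ± 0.11 SE, edgeR adjusted p = 0.00938). MARS2, the mitochondrial methionine enzyme, was at 8.44, 11.1 and 9.94 CPM against 13.6, 16.6 and 16.6 CPM (0.67 ± 0.17 SE, edgeR adjusted p = 0.0191). EARS2 was at 37.5, 35.2 and 37.7 CPM against 41.8, 51.7 and 47.1 CPM (0.35 ± 0.105 SE, edgeR adjusted p = 0.0443).

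Both lower calls in that comparison held under all 15 alternatives, and the higher ones did not. EARS2 lost its call in 8 of 15 alternatives, and VARS1 and MARS2 each lost it in 3. VARS1 lost it without untreated replicate 1 or 2 and by the study's thresholds. Leaving out untreated replicate 1, ETS1 KD replicate 2 or ETS1 KD replicate 3 left no mitochondrial enzyme called. TWEAK and the knockdown differ together in this comparison, and the TWEAK-treated control cells lie between. From untreated to TWEAK-treated control and from there to ETS1 KD, VARS1 changed by 0.35 and 0.16. MARS2 changed by 0.45 and 0.22, EARS2 by 0.13 and 0.22, AARS1 by 0.05 and -0.85 and GARS1 by 0.10 and -0.74. VARS1, MARS2 and EARS2 were called in neither step. Without untreated knockdown cells, the knockdown step is known only under TWEAK. MARS1 (-0.06) and IARS2 (-0.01) differed least, with MARS1 at 172, 171 and 169 CPM in untreated and 160, 174 and 156 CPM in ETS1 KD cells, and IARS2 at 258, 244 and 219 CPM against 220, 263 and 232 CPM. Between NFKB2 KD cells with TWEAK and untreated cells no synthetase was called, where 0.604% of all genes were called, 0.409% higher and 0.196% lower, and HARS1 and FARS2 differed least. HARS1 was at 138, 135 and 117 CPM in untreated and 142, 126 and 119 CPM in NFKB2 KD cells, and FARS2 was at 18.5, 18.6 and 15.8 CPM against 17.9, 21.5 and 13.2 CPM. In that comparison VARS1 and MARS2 had an unadjusted p under 0.05, against 8.56% of all genes, and neither DESeq2 nor the study's thresholds, which called 3.98% of all genes, called any member. Wholly above lay 3 cytosolic enzymes and 1 mitochondrial enzyme and wholly below AARS1, where 5.32% of all genes lay above and 5.95% below.

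The promoter sequences of AARS1, GARS1, CARS1 and MARS1 are shown because, among members that hold the letters TGATGNAA there, these had the largest log2 fold changes with ETS1 KD, and GARS1 is also the only member with an ETS1 peak in both TWEAK libraries. WARS1 was added after its values were seen, as the remaining gene called lower. Sequences are from RefSeq (GRCh38.p14), which gave a promoter at the MANE Select start of 30 of the 35 members. LARS1, VARS1, YARS1, AARS2 and VARS2 had no entry. Each is written 5′ to 3′ on the strand of its gene, from 200 bases before the start to the 10 bases that begin there, with TGATGNAA and CCGGAAG matches on either strand in capitals and, for WARS1, a match to the interferon-stimulated response element. The regions are chr16:70289497-70289706 (minus strand), chr7:30594678-30594887 (plus), chr11:3057414-3057623 (minus), chr12:57487868-57488077 (plus) and chr14:100375338-100375547 (minus).
AARS1: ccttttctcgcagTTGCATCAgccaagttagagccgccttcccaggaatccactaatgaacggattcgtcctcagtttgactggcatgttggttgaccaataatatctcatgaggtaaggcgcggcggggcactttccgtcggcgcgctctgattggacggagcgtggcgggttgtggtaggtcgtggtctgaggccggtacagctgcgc
GARS1: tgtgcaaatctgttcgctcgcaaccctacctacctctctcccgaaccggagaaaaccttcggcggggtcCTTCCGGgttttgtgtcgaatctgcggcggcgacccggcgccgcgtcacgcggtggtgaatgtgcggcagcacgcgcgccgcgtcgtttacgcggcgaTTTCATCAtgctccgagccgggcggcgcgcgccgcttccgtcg
CARS1: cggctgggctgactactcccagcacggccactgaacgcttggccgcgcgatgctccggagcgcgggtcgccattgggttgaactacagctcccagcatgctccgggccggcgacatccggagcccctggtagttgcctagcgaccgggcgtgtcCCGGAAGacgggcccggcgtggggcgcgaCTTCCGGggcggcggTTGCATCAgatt
MARS1: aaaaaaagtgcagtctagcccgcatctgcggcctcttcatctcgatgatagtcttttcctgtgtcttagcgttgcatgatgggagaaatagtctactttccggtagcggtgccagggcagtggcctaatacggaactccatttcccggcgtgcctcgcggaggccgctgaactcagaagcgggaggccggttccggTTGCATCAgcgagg
WARS1: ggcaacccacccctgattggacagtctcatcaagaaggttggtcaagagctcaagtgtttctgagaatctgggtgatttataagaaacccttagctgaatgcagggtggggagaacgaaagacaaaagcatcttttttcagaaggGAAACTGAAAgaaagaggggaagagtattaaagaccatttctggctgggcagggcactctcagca

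The composite element TGATGNAA was present on either strand in 7 of 16 cytosolic promoters (43.8%) and 1 of 14 mitochondrial ones (7.14%), beside 2.37% of all 14473 promoters and 1.52% of the 9924 promoters of genes tested. The cytosolic holders were AARS1, CARS1, GARS1, IARS1, MARS1, NARS1 and TARS1, and the mitochondrial one was YARS2. In AARS1 the match lay 187 to 180 bases before the start, in GARS1 33 to 26 bases before it, and in CARS1 and MARS1 it spanned the start. With ETS1 KD, the 7 cytosolic enzymes with the match had a median log2 fold change of -0.32, ranging from -0.85 to 0.06, and the 9 without it had a median of 0.12, ranging from -0.73 to 0.26. A match is a description of letters and not a measured site.

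The ETS letters CCGGAAG were found in 7 of 16 cytosolic (43.8%) and 7 of 14 mitochondrial promoters (50%), beside 20% of the promoters of genes tested. Cytosolic holders were CARS1, GARS1, HARS1, KARS1, NARS1, RARS1 and SARS1, and mitochondrial holders were CARS2, EARS2, HARS2, MARS2, PARS2, SARS2 and TARS2. HARS1 and HARS2 are divergent neighbours whose windows share sequence. With ETS1 KD, the median log2 fold change of the 7 cytosolic holders was 0.06 and that of the 9 others was -0.14. Neither AARS1 nor WARS1 holds CCGGAAG in this window. The shorter ETS letters AGGAAG, which CCGGAAG does not contain, were in 6 cytosolic promoters and 1 mitochondrial promoter, beside 31.4% of the promoters of genes tested.

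The remaining motifs were rarer. The κB consensus was in HARS1, QARS1, RARS1, HARS2 and RARS2, beside 13% of the promoters of genes tested, and the NRF1 motif was in FARSB, SARS1, TARS1, IARS2, MARS2 and PARS2, beside 12.3%. CACGTG was in IARS1, EARS2 and MARS2 (10.2%), and the interferon-stimulated response element was in WARS1, 55 to 46 bases before the start, and in EARS2 (2.77%).

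ETS1 peaks were found at few synthetase promoters. A promoter was taken as 1000 bp before to 100 bp after any start of a protein-coding transcript, and a peak had to overlap it by at least 1 bp in both replicates. GARS1 was the only one of the 35 with an ETS1 peak in both TWEAK libraries, where 7.54% of the promoters of genes tested had one. Its summits lay 47 bases after and 74 bases before the start, with fold enrichments of 5.4 and 3.79 and -log10 q of 5.52 and 3.34, and they ranked 1644 and 2420 in lists of 3570 and 3145 peaks. Without TWEAK, when 5.19% of promoters had a peak in both replicates, GARS1 had one in replicate 2 but not in replicate 1, so a difference with TWEAK at this promoter rests on 1 library. The CCGGAAG match of GARS1 lies 131 to 125 bases before the start.

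CARS1 had an ETS1 peak in TWEAK replicate 1 and RARS1 in TWEAK replicate 2, each in that library alone, and no mitochondrial promoter had any. AARS1 and WARS1, called lower with ETS1 KD, had no ETS1 peak at the promoter. The ETS1 summits nearest to the start of AARS1 were 37653 and 38337 bp downstream, each in 1 of the 2 libraries of its condition. Those nearest to WARS1 were 68331 to 68538 bp downstream in all 4 ETS1 libraries.

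p52 peaks in both replicates were found at no synthetase promoter, where 3.77% of the promoters of genes tested had one in TWEAK-treated control cells and 0.0156% in untreated cells. LARS1, YARS1 and CARS2 each had a p52 peak in TWEAK replicate 2, whose list of 11761 peaks was longer than the 3579 of replicate 1. In ETS1 KD cells the only p52 peak was that of YARS1 in replicate 2 of guide 1, ranked 3877 of 3897 peaks, where 1.49% of promoters with guide 1 and 3.94% with guide 2 had a peak in both replicates. In all, 29 of the 35 members had no ETS1 or p52 peak in any of the 12 libraries of these factors, as had 68.8% of the promoters of genes tested.

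**Figure D5:**
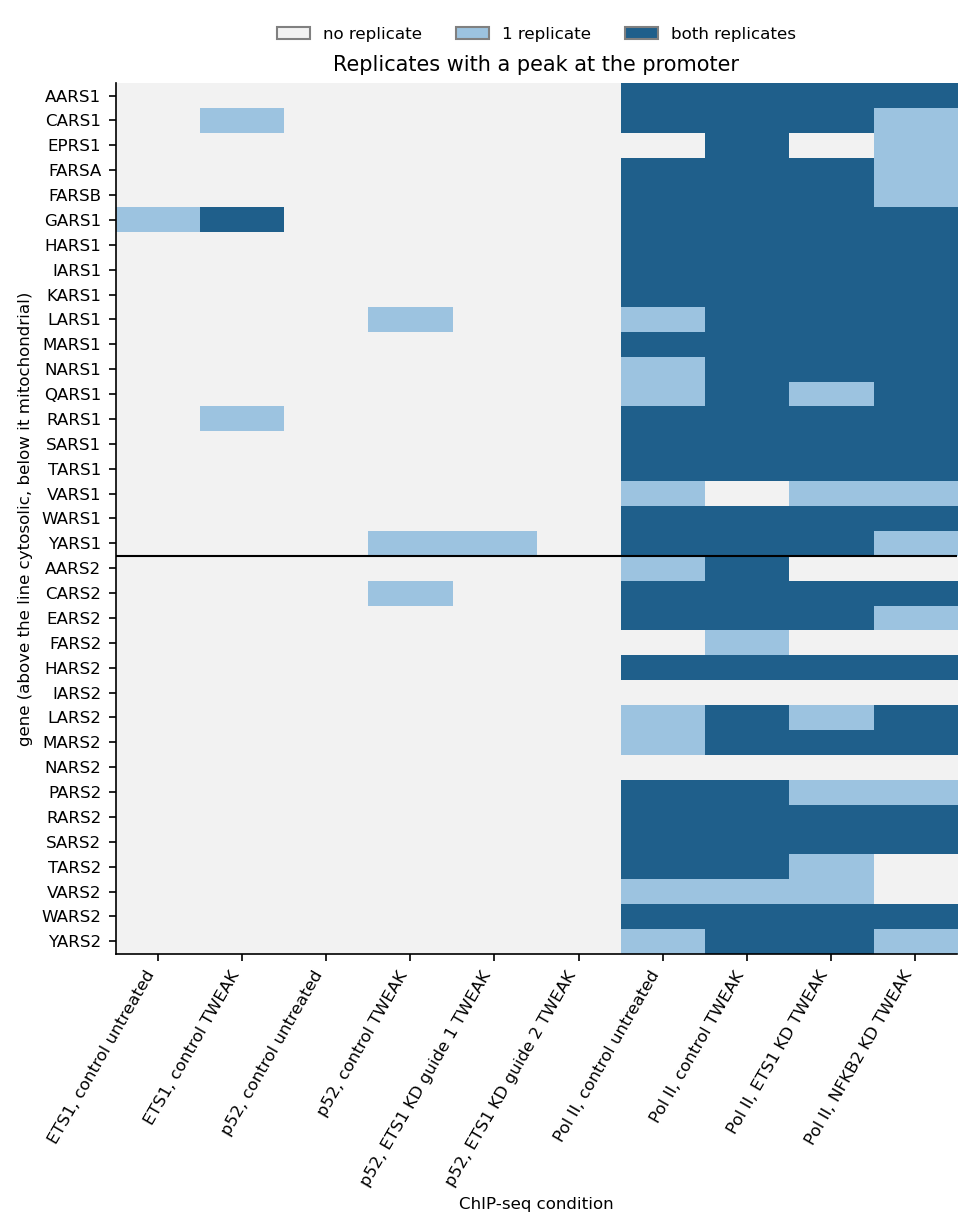
Number of replicates, of 2, with a peak at the promoter of each synthetase (rows, cytosolic above the line and mitochondrial below) in each ChIP-seq condition (columns). GARS1 is the only gene marked in both replicates of an ETS1 condition, no gene is marked in both replicates of a p52 condition, and most RNA Pol II cells are marked.

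RNA Pol II peaks were found at most of the promoters. In TWEAK-treated control cells 18 of 19 cytosolic and 12 of 16 mitochondrial promoters had a peak in both replicates, where 62.3% of the promoters of genes tested did. The counts were 14 and 8 in untreated control cells (48.9% of promoters), 16 and 8 with ETS1 KD (52.5%) and 13 and 7 with NFKB2 KD (46.9%). The lists differed in length, from 11175 peaks in NFKB2 KD replicate 2 to 44672 in TWEAK control replicate 1, and the part of list length in these counts was not tested. A peak in all 8 RNA Pol II libraries was present at 10 cytosolic promoters, AARS1, GARS1 and WARS1 among them, and at 5 mitochondrial ones. IARS2 and NARS2 had none in any library. HARS1 and HARS2 were counted on the same peaks. The windows of AARS1, KARS1, RARS2 and SARS2 also hold starts of DDX19B, TERF2IP, ORC3 and MRPS12. Over the promoters of genes tested, 34.9% had a peak in all 8 libraries and 17% had none in any. MARS1 is among the 10 cytosolic promoters, but its strongest peaks overlapped the window of another annotated start. Their summits lay 27422 to 32374 bp after the MANE start, near or past the end of the gene. In untreated replicate 2 the summit was at 57520442, past the end of MARS1 at 57517569. Within the window of the MANE start MARS1 had a peak in 4 of 8 libraries. IARS2 was nonetheless the mitochondrial member with the highest TPM in untreated cells.

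EPRS1 and AARS2 had an RNA Pol II peak in both TWEAK-treated control libraries and in neither ETS1 KD library, as had 3.8% of the promoters of genes tested. At EPRS1 the peaks had fold enrichments of 6.61 and 5.36, with none in untreated cells and 1 in NFKB2 KD replicate 1. At AARS2 the fold enrichments were 9.13 and 6.7, with 1 peak in untreated replicate 2 and none in NFKB2 KD cells.

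At the genes called lower with ETS1 KD, peaks remained in the knockdown cells. The AARS1 window also holds a start of DDX19B. AARS1 had fold enrichments of 8.11 and 13.9 in untreated, 22 and 13.3 in TWEAK-treated control, 6.55 and 8.82 in ETS1 KD and 12.1 and 5.02 in NFKB2 KD cells. GARS1 had 14.9 and 17.8, 24.5 and 17, 10.2 and 15.3, and 21.6 and 11.4 in the same order. WARS1 had 9.51 and 9.46, 20.4 and 20, 6.96 and 9.02, and 11.1 and 8.74, with summits at -397 to -899 bp from its start, in a window that also holds a start of WDR25. In all 3 genes both ETS1 KD values were below both TWEAK-treated control values. Members that were not called showed this too, such as KARS1 (13.6 and 17.1 against 9.69 and 10 with ETS1 KD). NARS1 was another (9.95 and 8.28 against 5.91 and 6.51). Among the other uncalled members with a peak in both libraries of both conditions, the values overlapped in CARS1, FARSB, HARS1, MARS1, TARS1, YARS1, CARS2, EARS2, HARS2, MARS2 and WARS2. In FARSA, IARS1, LARS1, RARS1, SARS1, RARS2, SARS2 and YARS2 both ETS1 KD values were again below both control values, so the pattern was not particular to the called genes. The share of all promoters with this pattern was not measured. The median fold enrichment over the cytosolic member peaks was also lower with ETS1 KD, at 6.55 beside 9 in TWEAK-treated control cells. The mitochondrial member peaks had medians of 6.05 and 7.63 in the same conditions, and with NFKB2 KD the medians were 8.27 for cytosolic and 6.51 for mitochondrial peaks. With 2 libraries per condition these values were not tested.

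Reads shared with neighbours limit a few of these values, since the strand setting of the counting is not stated. Opposite-strand genes overlap 10.6% of the exon bases of WARS1, 1.8% of those of GARS1 and 0.42% of those of AARS1. MARS1 shares 5.05% of its exon bases with DDIT3, which fell by 1.82 on the log2 scale with ETS1 KD, and the part of DDIT3 reads in the MARS1 values was not tested.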

How the data were processed

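RNA-seq reads were trimmed with Trimmomatic, mapped to hg38 with STAR and counted per gene with featureCounts by the authors, who deposited raw counts (versions, annotation release and strand setting are not given in the sources used here). For ChIP-seq, the authors used Trimmomatic, Bowtie2 and MACS2 with input subtraction and removed blacklisted regions. The deposited lists, 1 per library, give fold enrichment over background (a ratio), −log10 p and −log10 q, and a score and signal column. The 3 input samples were not analysed here.

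The members and gene lists were chosen with earlier results of these data known. Groups followed the labels. Counts were filtered with filterByExpr, normalised by TMM and entered into the quasi-likelihood F-test of edgeR 4.0.16 under R 4.3.3 (two-sided, 4 groups in 1 model, no covariate), with Benjamini-Hochberg adjustment over 16879 genes and calls at an adjusted p under 0.05. DESeq2 1.42.0, which the authors used, was an alternative. CPM were taken over the TMM-scaled library size. TPM used GENCODE release 44 exon lengths, with all annotated exons of a gene merged. The 12 libraries held 28384201 to 40192606 counts, which limits precision most for VARS2, SARS2 and PARS2, the members with the fewest counts. Scripts were tested on simulated data.

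Values in every library were given, per comparison and class, for the 4 called members with the largest log2 fold change and the member with the smallest. Of the other lists, the 3 called genes with the largest change were named, or the 2 most highly expressed where none was called. The value of 1 gene that this rule names is not reported here. Other members given in full were chosen after their values were seen. The labels do not say that replicates came from separate cultures, while the paper's methods describe biological replicates, so p-values measure the spread between these samples. The RNA labels name a DNA library kit.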

Additional observations from a re-analysis of the deposited data

Results flagged for a closer look

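AARS1 and GARS1 stood out because the effects of the 2 knockdowns on them, each under TWEAK, differed in a direct test. AARS1 differed by -0.68 on the log2 scale between ETS1 KD and NFKB2 KD cells, and was lower in all 3 ETS1 KD libraries. GARS1 differed by -0.55, also lower in all 3, though its call was lost in 4 of 15 alternatives and that of AARS1 in none. Both comparisons with control cells share the TWEAK-treated control libraries, which do not enter this difference.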

How the results depend on the processing

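No called member changed direction under any alternative, while class medians near 0 did. Replicate numbers shared between groups did not pair the RNA-seq samples throughout (r from -0.304 to 0.492 over 18 pairs, 9 of them over 0.1). All such pairs of replicate 3 were above 0 (r from 0.071 to 0.492), while those of replicates 1 and 2 had both signs. A partial pairing was not tested. With the replicate block, the cytosolic enzymes called between ETS1 KD and untreated cells numbered 5 in place of 3, and no other count of called enzymes moved by over 1.5 times. For that comparison DESeq2 called 5 cytosolic enzymes (16.9% of all genes), a GC content and length correction 7 (23.1%), and that correction with the replicate block 8 (26.9%), beside 13.8% of all genes in the fit as reported and 16.5% with the block alone. The corrected block fit also called 5 with ETS1 KD against control (4.72% of all genes), 4 between the knockdowns (8.81%) and 1 (WARS1) with TWEAK (9.66%), which DESeq2 also gave as 1 (5.57%). Restricting to the 2 groups compared, or to the study's thresholds, left 1 cytosolic enzyme between the knockdowns and 1 mitochondrial enzyme against untreated cells, as did no filter on low counts for the latter. Leaving out 1 library gave 1 to 3 cytosolic enzymes between the knockdowns and 0 to 2 mitochondrial enzymes against untreated cells. It moved the mitochondrial NFKB2 KD median between -0.0027 and 0.0928 and the cytosolic median between the knockdowns from -0.1362 to 0.1037. The mitochondrial median between the knockdowns reached -0.0032 and the cytosolic median of NFKB2 KD against untreated cells ran from -0.056 to 0.0896. The causes were not tested.

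A peak in either replicate gave 1 cytosolic promoter for ETS1 without TWEAK, 3 for ETS1 with TWEAK, 2 cytosolic and 1 mitochondrial for p52 with TWEAK, 1 for p52 with guide 1 and 13 mitochondrial for RNA Pol II in untreated cells. At a −log10 q of at least 5, ETS1 with TWEAK had 0, and RNA Pol II had 5 mitochondrial in untreated cells, 4 with ETS1 KD, and 7 cytosolic and 4 mitochondrial with NFKB2 KD. With 1 replicate left out, the counts were 0 to 1 for ETS1 without TWEAK, 2 in both cases with TWEAK, 0 to 2 cytosolic and 0 to 1 mitochondrial for p52 with TWEAK, 0 to 1 for guide 1, and 8 to 13 mitochondrial for RNA Pol II in untreated cells. Depth limits VARS2, SARS2 and PARS2 most.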
